A study of Mus musculus with 4 samples.

Results

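CXCR3 is the chemokine receptor of effector T cells and NK cells, and Cxcl9, Cxcl10 and Cxcl11 encode its ligands. These 4 listed genes were followed in single-cell RNA-seq of mouse lungs, out of 32286 genes in the deposited tables. Cxcl9, Cxcl10 and Cxcr3 have a row in these tables, and Cxcl11 was not analysed here. The unique molecular identifiers (UMIs) of each gene were summed per mouse and lineage. A lineage was set by 1 or more UMIs of Ptprc (immune cells), Cdh5 (endothelial cells), Epcam (epithelial cells), Higd1b or Myh11 (mural cells) or Pdgfra (fibroblasts), and cells with markers of several lineages were left out.

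The lungs came from 2 wild-type (WT) and 2 Tubb3-/- mice, 14 days after 0.8 U/kg of intratracheal bleomycin, which injures the alveolar epithelium and leads to fibrosis. All mice were 8 to 11 weeks old and received bleomycin, so no uninjured lung stands beside them. Tubb3-/- mice carried a Cre knockin at the start codon on both Tubb3 alleles, a deletion of β-III tubulin (Tuj1) that is not limited to a cell type, and WT mice were littermate controls. Each mouse gave a whole-cell sample, depleted of red blood cells, and a mural cell-enriched sample. The enriched sample was depleted of endothelial (CD31), immune (CD45), epithelial (EpCAM) and red blood (TER-119) cells. Sorted MCAM+ PDGFRα- cells and MCAM- cells were then mixed in it in equal numbers. The comparison between genotypes addresses whether the loss of Tuj1 changes Cxcl10 in pericytes, the mural cells of capillaries.

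CXCL9 and CXCL10 are secreted by cells exposed to interferon-γ and, for CXCL10, also to type I interferon or to NF-κB activating signals. Bound to CXCR3, a receptor coupled to inhibitory G proteins, they direct type 1 T cells and NK cells into inflamed tissue, and they oppose the growth of vessels. CXCL10 is also known to limit fibrosis in the injured lung, whereas CXCL9 is largely a product of macrophages and dendritic cells. In mouse, Cxcl11 is annotated as a polymorphic pseudogene.

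All 3 ligand genes lie side by side on the minus strand of chromosome 5 (mm10, GENCODE vM21). Cxcl9 (ENSMUSG00000029417) spans chr5:92321347-92328079, Cxcl10 (ENSMUSG00000034855) spans chr5:92346638-92348889, and Cxcl11 (ENSMUSG00000060183) spans chr5:92359544-92365485. Cxcl10 lies wholly inside Art3 (ENSMUSG00000034842), an ADP-ribosyltransferase gene on the plus strand, and its exons share 133 bases with exons of Art3. Cxcr3 (ENSMUSG00000050232) spans chrX:101731535-101734269 on the minus strand. The 250 bases before the start of each measured ligand (RefSeq, GRCm38.p6) are shown with the letters that NF-κB and, for Cxcl10, interferon factors are known to bind. Capitals mark the interferon-stimulated response element (ISRE) core and the NF-κB letters, each read on both strands, and overlapping matches run together.
Cxcl9 promoter, chr5:92328080-92328329, minus strand: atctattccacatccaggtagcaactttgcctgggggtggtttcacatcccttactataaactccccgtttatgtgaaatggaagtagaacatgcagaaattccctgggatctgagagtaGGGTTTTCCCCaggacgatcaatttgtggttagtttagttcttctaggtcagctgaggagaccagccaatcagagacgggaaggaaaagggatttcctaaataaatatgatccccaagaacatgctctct
Cxcl10 promoter, chr5:92348890-92349139, minus strand: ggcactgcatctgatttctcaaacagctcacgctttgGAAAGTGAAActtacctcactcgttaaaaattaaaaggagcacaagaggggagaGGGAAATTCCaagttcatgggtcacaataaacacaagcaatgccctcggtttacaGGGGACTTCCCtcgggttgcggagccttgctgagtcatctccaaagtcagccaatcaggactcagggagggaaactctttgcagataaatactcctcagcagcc
The Cxcl10 window holds the ISRE core GAAAGTGAAA, from 213 to 204 bases before the start. It also holds NF-κB matches from 159 to 150 and, overlapping each other, from 104 to 94 bases before the start. The Cxcl9 window has overlapping NF-κB matches from 130 to 120 bases before the start, and no ISRE core. In the same window of Cxcr3, an NF-κB match stood from 139 to 130 bases before the start, with no ISRE core. The letters of the interferon-γ activated site (GAS) were not found in any of the 3 windows. Of 32851 mouse promoters of this length, 2.98% held the ISRE core, 7.02% the GAS letters, 45.8% the NF-κB letters, and 1.01% both the ISRE core and NF-κB letters, as in Cxcl10.

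Of 32121 cells, 30860 were kept, with 40813049 to 89235647 UMIs per library. The single-lineage cells were 4546 immune, 2407 endothelial, 417 epithelial, 5589 mural and 4547 fibroblast cells. A further 12261 cells (39.7%) carried markers of several lineages, most often of mural cells and fibroblasts together (5325 cells), and 1093 carried none. No cell barcode was shared by libraries of the same pool, and 59 were shared between the pools. Genes outside the gate followed it, with Coro1a in 88.6% of immune cells, Pecam1 in 95.6% of endothelial cells, Krt8 in 89.9% of epithelial cells and Col1a1 in 99.4% of fibroblasts. The mural gate was the least clean, with Notch3 in 68.5% of its cells but Col1a1 in 96.8%, at 1377 CPM (UMIs per 1000000 UMIs of the class) against 3414 CPM in fibroblasts. Col1a1 was also found in 38.6% of immune, 38.6% of endothelial and 63.1% of epithelial cells, at 100, 196 and 130 CPM. A gene abundant in fibroblasts was thus counted at a low level in the other gates too. The targeted gene Tubb3 followed the labels, at 10.4 and 8.5 CPM in mural cells of WT mice against 0.80 and 1.3 CPM in those of Tubb3-/- mice, a log2 difference of -3.17 ± 0.30 (SE) with an adjusted p of 0.0543 by edgeR's quasi-likelihood test and of 6.1e-11 by DESeq2.

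The receptor was found mainly in immune cells. Cxcr3 was at 11.6 and 7.9 CPM in immune cells of the WT mice and at 12.1 and 10.9 CPM in those of the Tubb3-/- mice (mean 10.6 ± 1.88 (SD, n = 4)). In endothelial cells it reached 0.335 ± 0.177 CPM, from 7 UMIs in all. Epithelial cells held 2 UMIs in all, fibroblasts 8 in 4547 cells, and mural cells 1 in 5589 cells. Immune cells were above endothelial cells, the next lineage in order, by 5.27 ± 0.39 (SE) on the log2 scale (adjusted p = 1.1e-09, edgeR with Benjamini-Hochberg adjustment), in a comparison that called 66.7% of all genes. After each cell was thinned to 2000 UMIs, Cxcr3 was found in 2.57 ± 0.694% of immune cells.

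**Figure D1:**
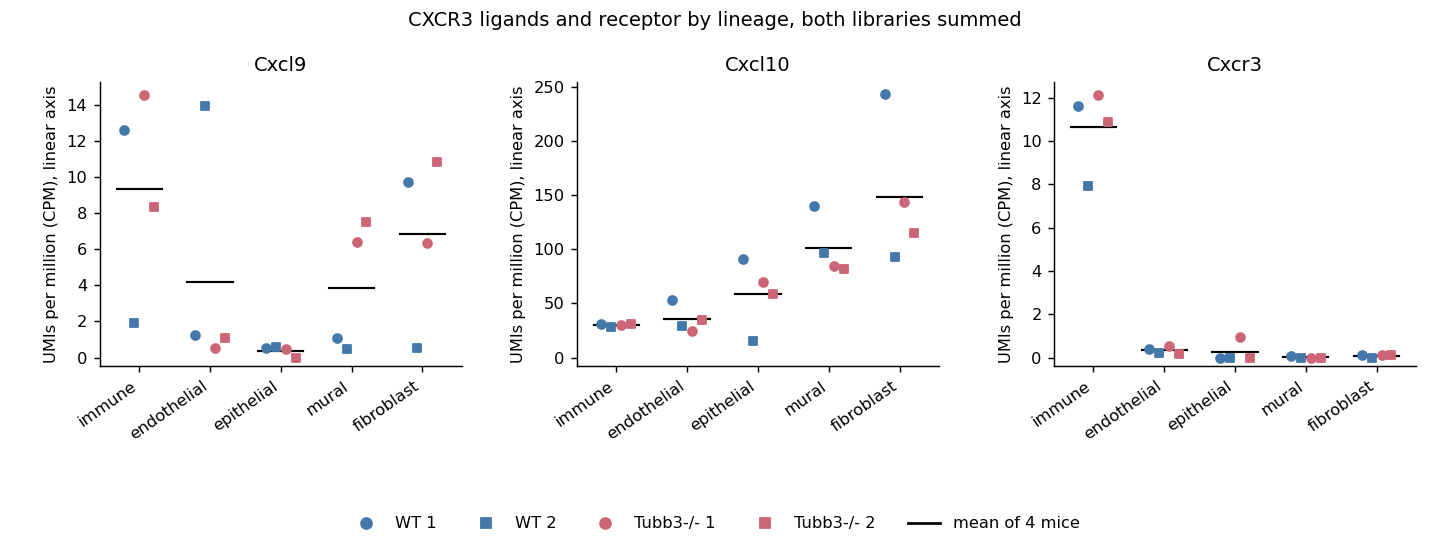
Level of Cxcl9, Cxcl10 and Cxcr3 by lineage, in CPM (linear axes that differ between panels), with 1 point for each mouse and a bar for the mean of 4 mice. Cxcr3 stands above 1 CPM in immune cells alone, Cxcl10 is highest in fibroblasts and mural cells, and Cxcl9 differs widely between mice.

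Within the immune cells, 2 classes held most of the receptor. Classes were set by panels of 5 marker genes, so a name stands for cells in which that panel led. T cells, which use CXCR3 to enter inflamed tissue, carried 296 of the Cxcr3 UMIs of immune cells in the whole-cell libraries (56.7%), in 174 cells. Type 1 conventional dendritic cells (cDC1), which cross-present antigen to CD8 T cells, carried 144 (27.6%), in 76 cells. NK cells carried 18, and cDC2 and nonclassical monocytes none.

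Cxcr3 in T cells was at 41.0 and 29.9 CPM in the WT mice and at 37.9 and 32.8 CPM in the Tubb3-/- mice. In cDC1 it was at 19.7, 36.5, 39.1 and 50.2 CPM in the same order, so both classes lay in the same range and the mice overlapped. NK cells were more uneven, at 15.6, 1.8, 20.6 and 4.9 CPM. The higher share of cDC1 with a UMI (34.2%, against 15.8% of T cells) went with deeper cells, since at 2000 UMIs per cell the shares were 7.80 ± 3.33% and 6.82 ± 2.31%. In B cells 0.428% of cells had a UMI, at medians of 4620 to 5307 UMIs per cell. Among T cells, those with Cd4 and no Foxp3 were at 60.6, 25.5, 60.7 and 48.3 CPM, and those with Foxp3, the gene of regulatory T cells, at 53.8, 12.9, 15.3 and 23.1 CPM. The cells with Cd8a were at 20.2, 48.0, 26.7 and 24.9 CPM, so cells with Cd4 were above those with Foxp3 in 4 of 4 mice, whereas cells with Cd8a were above those with Cd4 in WT mouse 2 alone.

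Marker genes were compared between cDC1 with and without Cxcr3. Of the 76 cDC1 with a Cxcr3 UMI, 97.4% had Xcr1, the chemokine receptor that marks cDC1, and 100% had Clec9a. Both genes belong to the cDC1 panel, which had to lead over the T cell panel. High shares of them and few T cell genes thus follow in part from the class itself. At least 1 T cell panel gene was found in 15 of the 76 (19.7%) and in 24 of those without Cxcr3 (16.4%). Cd3e, a subunit of the T cell receptor complex, was found in 2.63% of them and in 2.05% of the 146 cDC1 without Cxcr3, and 2 or more T cell markers were found in 4 of the 76 and in 1 of the 146. Cells with Cxcr3 had a median of 20794 UMIs and those without 17332 UMIs.

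**Figure D2:**
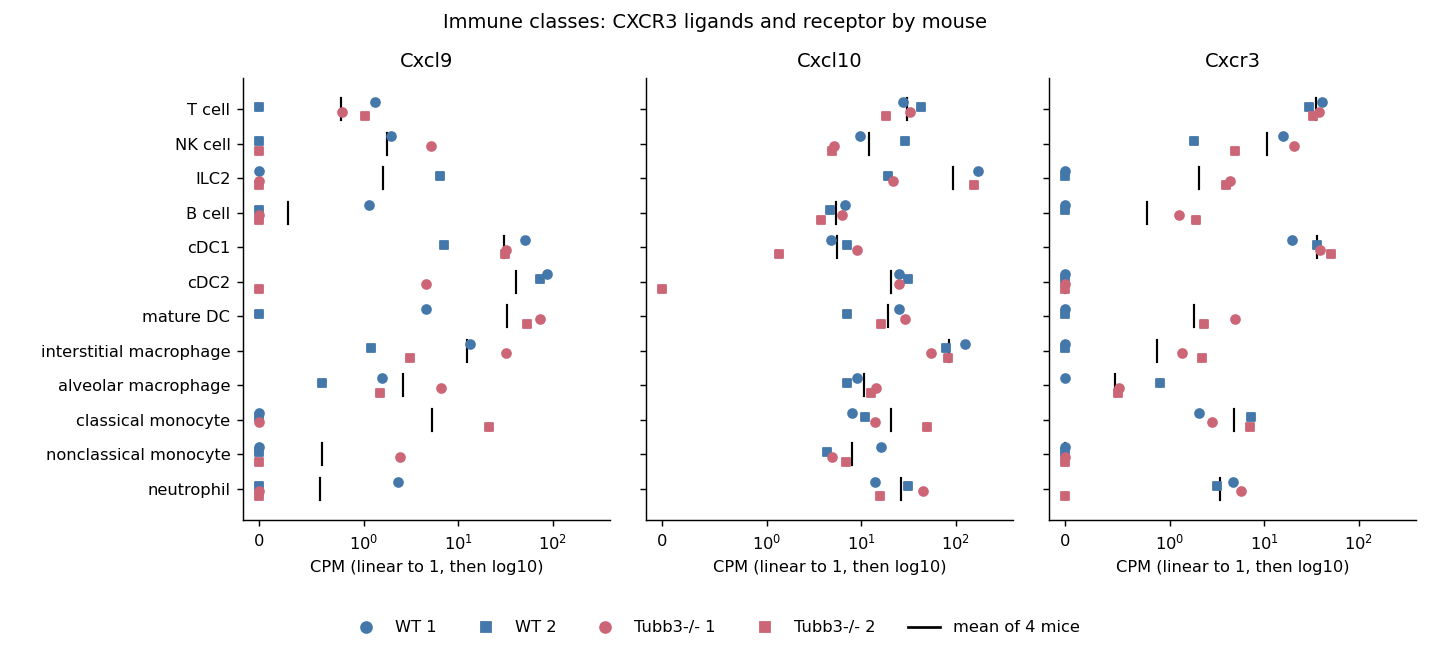
Cxcl9, Cxcl10 and Cxcr3 in immune classes, in CPM (linear up to 1, log10 above), with 1 point for each mouse and a bar for the mean of 4 mice. Cxcr3 is highest in T cells and cDC1, Cxcl9 in dendritic cells, and Cxcl10 reaches 54.6 CPM or more in interstitial macrophages of every mouse.

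Cxcl10 was the more abundant ligand, with its highest mean levels in fibroblasts and mural cells. In fibroblasts it was at 243 and 92.5 CPM in the WT mice and at 144 and 115 CPM in the Tubb3-/- mice. In mural cells it was at 140 and 96.4 CPM in WT mice against 84.9 and 81.3 CPM in Tubb3-/- mice. The 2 lineages overlapped between mice, but fibroblasts were above mural cells of the same mouse in 3 of 4 mice and, with mouse as a term, by 0.61 ± 0.22 (SE) on the log2 scale (adjusted p = 0.0308, edgeR with Benjamini-Hochberg adjustment; 45.6% of all genes were called). This call was lost without TMM normalization (0.50, adjusted p = 0.0806), in the whole-cell libraries alone (0.61, adjusted p = 0.225) and without WT mouse 1, Tubb3-/- mouse 1 or Tubb3-/- mouse 2 (0.50, 0.53 and 0.63).

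Epithelial cells followed, at 90.9 and 15.3 CPM in WT mice against 69.7 and 58.7 CPM in Tubb3-/- mice. Endothelial cells were at 53.2, 28.8, 24.96 and 34.3 CPM, and immune cells at 31.2, 28.3, 30.1 and 31.2 CPM, the narrowest spread of any lineage. In edgeR's quasi-likelihood fit, mural cells were above epithelial cells by 0.95 ± 0.25 (SE) on the log2 scale (Benjamini-Hochberg adjusted p = 0.00298, edgeR; 60% of all genes called). Epithelial cells were above endothelial cells by 0.71 ± 0.27 (adjusted p = 0.0276, edgeR with Benjamini-Hochberg adjustment; 60.4% called), whereas in the whole-cell libraries alone the difference was -0.94 and not called, and the call was also lost without WT mouse 1 (0.68), Tubb3-/- mouse 1 (0.45) or Tubb3-/- mouse 2 (0.69). Endothelial and immune cells did not differ beyond their spread (-0.16, adjusted p = 0.594, edgeR). Cells were also placed by their highest marker score, a rule chosen after seeing the data. It keeps cells with several markers if the highest score is at least 2 times the next. By this rule, mural cells were above epithelial cells by 0.27 and the call was lost. Fibroblasts placed by score were above mural cells of the same mouse in every mouse and in both samples. In the whole-cell libraries they were at 179, 108, 132 and 82.2 CPM against 42.0, 52.0, 61.5 and 22.0 CPM. In the enriched libraries they were at 239, 133, 136 and 120 CPM against 109, 70.9, 54.0 and 70.5 CPM.

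The share of cells kept this order but for immune cells, which stood above endothelial cells. At 2000 UMIs per cell, Cxcl10 was found in 11.7 ± 3.55% of fibroblasts, 8.03 ± 1.74% of mural cells, 4.74 ± 3.40% of epithelial cells, 3.38 ± 0.618% of immune cells and 2.80 ± 0.776% of endothelial cells (SD, n = 4). Without thinning, 30.4 ± 4.02% of fibroblasts and 22.3 ± 1.90% of mural cells had a UMI, with median depths of 14734 to 19570 and of 9600 to 12002 UMIs per mouse. B cells had a UMI in 1.61 ± 0.703% of thinned cells, a level below that of each lineage.

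Most of the Cxcl10 signal sat in few cells. Of 1381 fibroblasts with a UMI, 374 had 10 or more and held 80.6% of the 12278 UMIs, with up to 299 in 1 cell. In mural cells, 174 of 1256 positive cells held 68.4% of 6729 UMIs. In immune cells, 27 of 423 positive cells held 51.0%, and in epithelial cells 9 of 67 held 79.1%. No cell had as many as 10 UMIs of Cxcr3, whose highest immune cell had 8, and 188 of 315 positive immune cells had 1.

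Classes within the lineages were read by their marker panels. Alveolar fibroblasts, which lie along the alveoli, were at 286, 75.8, 126 and 128 CPM of Cxcl10 (WT mice 1 and 2, then Tubb3-/- mice 1 and 2). Adventitial fibroblasts, from the cuffs of vessels and airways, were at 160, 98.1, 168 and 105 CPM, inflammatory fibroblasts at 150, 232, 180 and 93.4 CPM, and fibrotic fibroblasts, with Cthrc1 and Postn, at 97.7, 95.7, 107 and 83.5 CPM. The 4 classes overlapped between mice. In the epithelium, AT1 cells, the flat cells of gas exchange, were at 143, 30.3, 78.1 and 137 CPM and surfactant-making AT2 cells at 3.2, 3.7, 2.4 and 10.0 CPM, with no overlap. Of the 76 Cxcl10 UMIs in AT1 cells of WT mouse 1, 73 were in 1 cell.

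Among endothelial classes, venous cells were at 177, 132, 0 and 70.2 CPM, from 20 to 38 cells per mouse, and general capillary cells at 14.4, 11.4, 32.7 and 41.2 CPM. In capillary cells of the Tubb3-/- mice, 59 of 132 and 99 of 160 UMIs were in 1 cell each. Interstitial macrophages, which lie in the tissue between alveoli, were at 126, 78.1, 54.6 and 82.0 CPM and held 28.4% of the Cxcl10 UMIs of immune cells in the whole-cell libraries. In their highest cell were 129 of 198, 41 of 65, 46 of 164 and 114 of 187 UMIs. Alveolar macrophages were lower in every mouse, at 8.9, 7.0, 14.3 and 12.5 CPM. T cells, the main receptor class, held a further 20.0% of the immune Cxcl10 UMIs.

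Mural cells could be parted by their 2 markers. Cells with Myh11 alone, a contractile gene of smooth muscle and myofibroblasts, made up 4999 of the 5589 cells and were at 141, 99.001, 91.6 and 75.4 CPM of Cxcl10. Cells with both Higd1b, a pericyte gene, and Myh11 were at 127, 81.6, 21.6 and 131 CPM. Only 46 cells had Higd1b alone (11, 17, 12 and 6 by mouse), with 4, 5, 1 and 13 Cxcl10 UMIs, and no member passed the filter on low counts there. By the highest marker score, 231, 259, 398 and 358 mural cells carried 2 or more of the pericyte genes Higd1b, Cox4i2 and Ndufa4l2, and their Cxcl10 was at 93.0, 107, 53.5 and 78.7 CPM.

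Cxcl9 was scarce and uneven. In immune cells it was at 12.6 and 1.9 CPM in WT mice against 14.6 and 8.3 CPM in Tubb3-/- mice. Fibroblasts were at 9.7, 0.55, 6.4 and 10.9 CPM, endothelial cells at 1.2, 13.9, 0.55 and 1.1 CPM, and mural cells at 1.1, 0.48, 6.4 and 7.5 CPM. Epithelial cells held 3 UMIs in all. WT mouse 2 was lowest in immune cells, mural cells and fibroblasts and highest in endothelial cells. By edgeR's quasi-likelihood test, neighbours in the order of means did not differ beyond their spread: the log2 difference was 0.58 for immune cells against fibroblasts (adjusted p = 0.486; 76.2% of all genes called), 0.69 for fibroblasts against endothelial cells (adjusted p = 0.556; 63.9% called) and 0.19 for endothelial against mural cells (adjusted p = 0.891; 63.6% called). In the whole-cell libraries alone, immune cells were above fibroblasts by 2.46 (adjusted p = 0.0205, edgeR). Without WT mouse 2, fibroblasts were above endothelial cells by 3.65 and endothelial cells below mural cells by -2.67, and both were called.

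Single cells carried much of this. In endothelial cells of WT mouse 2, 57 of 60 Cxcl9 UMIs were in 1 cell of 4668 UMIs. In fibroblasts, the highest cell held 157 of 173, 2 of 9, 112 of 167 and 82 of 251 UMIs by mouse. In immune cells it held 57 of 153, 7 of 20, 87 of 210 and 23 of 97 UMIs. The immune Cxcl9 was led by dendritic cells, which present antigen to T cells: cDC1 held 138 of the UMIs in whole-cell libraries (35.1%), cDC2 held 61, mature dendritic cells 55 and interstitial macrophages 39, against 7 in T cells. In cDC1, Cxcl9 was at 50.5 and 7.0 CPM in WT mice against 32.1 and 31.2 CPM in Tubb3-/- mice, with 57 of the 64 UMIs of WT mouse 1 in 1 cell.

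Sources and receivers were compared in the whole-cell libraries, which were not enriched for a lineage. Of the Cxcr3 UMIs of single-lineage cells, 97.4 ± 1.59% (SD, n = 4 mice) were in immune cells. Of the Cxcl10 UMIs, 53.2 ± 14.2% were in fibroblasts, 24.8 ± 8.26% in immune cells, 11.2 ± 5.68% in endothelial cells and 9.41 ± 3.004% in mural cells. Fibroblasts held the largest share in 3 of 4 mice, and in WT mouse 2 immune cells held 37.1% against 35.3% in fibroblasts. By cells with a UMI, immune cells were the largest group, with 403 of 890 (45.3%), against 284 fibroblasts, 123 endothelial and 55 mural cells. Immune cells were also the most numerous single lineage. They made up 31.3% of all cells of these libraries, against 9.72% for fibroblasts, 13.6% for endothelial and 3.30% for mural cells. These percentages count cells with several markers or none in the total, unlike the 890. Cxcl9 UMIs were 72.0 ± 31.5% immune, from 25.6% in WT mouse 2, where the single endothelial cell counted, to 95.03%. Cells with Cxcl10 numbered 201, 176, 293 and 220 by mouse, cells with Cxcr3 90, 55, 114 and 68, and cells with Cxcl9 30, 11, 35 and 33. These cells were not thinned and come from lineages of unlike depth, and 276 of the 423 immune cells with Cxcl10 in both samples had a single UMI, so the numbers give no ratio of sources to receivers.

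These shares depended on the cells with several markers, which held 50.2% of the Cxcl10, 68.5% of the Cxcl9 and 50% of the Cxcr3 UMIs of the whole-cell libraries and 48.0% of all UMIs. Cells with a lineage marker were then placed by their highest marker score where it was at least 2 times the next score. By this rule, immune cells held 92.5% of Cxcr3 and 86.2% of Cxcl9 UMIs. Fibroblasts then held 52.6% of Cxcl10 UMIs with 16.7% of cells, immune cells 23.4%, endothelial cells 8.28% and mural cells 3.03%. Cells left without a lineage, 6.71% of cells, held 10.4% of Cxcl10, 1.53% of Cxcl9 and 4.24% of Cxcr3 UMIs.

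**Figure D3:**
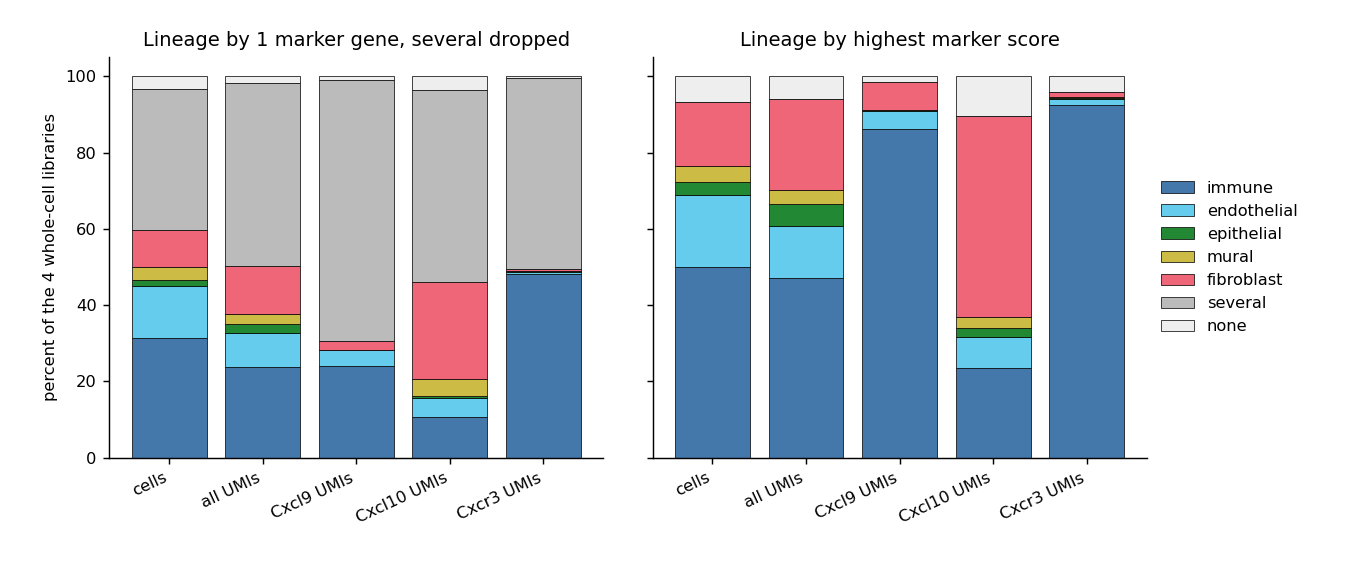
Percent of the cells, of all UMIs and of the UMIs of each gene that fell to each lineage in the 4 whole-cell libraries together, with cells of several lineages shown apart (left) or placed by their highest marker score (right). By score, most Cxcr3 and Cxcl9 UMIs fall to immune cells (92.5% and 86.2%) and most Cxcl10 UMIs to fibroblasts (52.6%).

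Ligand and receptor were also counted within single cells. Of 419 immune cells with Cxcl10 and at least 2000 UMIs, 27 also had Cxcr3 (6.44%, exact 95% interval 4.29 to 9.24), against 7.07% of the other immune cells. Thinned to 2000 UMIs the values lay the other way, at 7 of 151 cells (4.64%, interval 1.88 to 9.32) against 2.55% (2.10 to 3.07). In T cells, 6 of 40 thinned cells with Cxcl10 had Cxcr3 (15%, interval 5.71 to 29.8), against 6.78% of the others (5.34 to 8.46). The intervals cover counting error only. In fibroblasts, 35 of 74 cells with Cxcl9 also had Cxcl10 (47.3%, interval 35.6 to 59.3), against 30.2% of the others (28.9 to 31.6). Thinned to 2000 UMIs, these shares were 7 of 23 cells (30.4%, interval 13.2 to 52.9) and 11.5% (10.6 to 12.5). Cells of a mouse are not replicates, so no test was made.

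Cxcl10 was also compared between the 2 samples of the same mouse. Fibroblasts of the mural cell-enriched sample were above those of the whole-cell sample in 4 of 4 mice, at 256 against 202, 110 against 52.8, 154 against 123 and 126 against 89.4 CPM. The mean log2 ratio was 0.55 ± 0.34 (SD, n = 4; exact two-sided sign-flip permutation p = 0.125, the smallest that 4 mice allow). Mural cells differed with no common direction, at 147 against 56.4, 96.7 against 92.7, 81.8 against 114 and 81.4 against 80.0 CPM (exact permutation p = 0.625). Epithelial cells were higher in the enriched sample in 4 of 4 mice, by up to 331 against 2.09 CPM in WT mouse 1 (exact permutation p = 0.125). The enriched sample was depleted of CD45, CD31 and EpCAM, so its immune, endothelial and epithelial cells are those that escaped depletion.

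**Figure D4:**
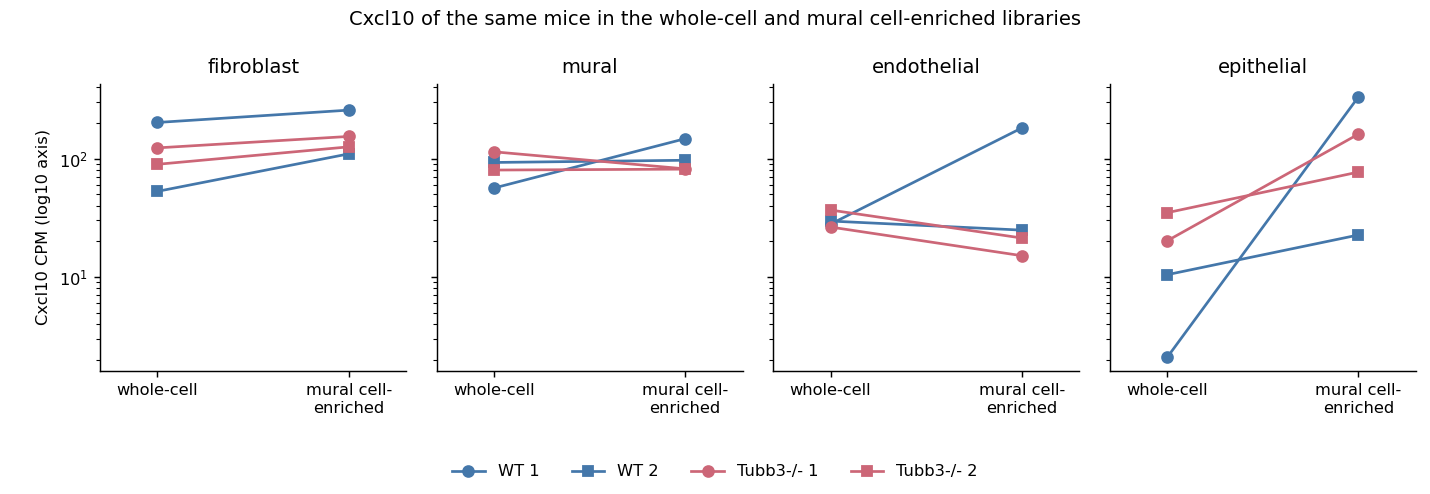
Cxcl10 in the whole-cell and the mural cell-enriched sample of each mouse, in CPM on a log10 axis, with 1 line for each mouse. Lines rise for all 4 mice in fibroblasts and in epithelial cells and cross in mural and endothelial cells.

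Tubb3-/- and WT mice were compared in 7 classes, and no member was called where it passed the filter on low counts (edgeR's quasi-likelihood test, p-values adjusted over all genes by Benjamini-Hochberg). Cxcl10 was tested in each class but Higd1b-only cells, where no member was tested. Cxcl9 was tested in immune cells, mural cells and fibroblasts, and Cxcr3 in immune cells and T cells. The background was as low: 0% of genes were called in immune cells, epithelial cells, fibroblasts, T cells and Higd1b-only cells, 0.023% in endothelial cells and 0.0263% in mural cells. At an unadjusted p under 0.05, edgeR gave 1167 genes in immune cells, 1787 in endothelial cells, 613 in epithelial cells, 1808 in mural cells, 2801 in fibroblasts, 754 in T cells and 100 in Higd1b-only cells, and DESeq2 called 65, 148, 6, 236, 534, 3 and 1 in that order. 

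Cxcl10 in mural cells, a class mostly of cells with Myh11 alone and thus wider than pericytes, was lower in both Tubb3-/- mice (84.9 and 81.3 CPM) than in both WT mice (140 and 96.4 CPM). The log2 difference was -0.52 ± 0.21 (SE), with an adjusted p of 0.401 (edgeR), so it did not pass the test. With this gate its direction turned with the sample: in the whole-cell libraries mural cells of WT mice were at 56.4 and 92.7 CPM and those of Tubb3-/- mice at 114 and 80.0 CPM, from 91 to 152 cells per mouse (0.41, adjusted p = 0.896, edgeR). The pericyte-panel cells differed by -0.58 ± 0.19 (adjusted p = 0.685, edgeR), again with both Tubb3-/- mice below both WT mice. In the whole-cell libraries alone, the 32 to 45 pericyte-panel cells of a mouse were at 93.4 and 104 CPM in WT mice against 39.5 and 53.1 CPM in Tubb3-/- mice (-1.09 ± 0.29, adjusted p = 0.800, edgeR). These levels came from 4 to 7 cells with a UMI per mouse, and the highest cell held 24 of 29 UMIs in WT mouse 2 and 19 of 24 in Tubb3-/- mouse 2. Mural cells by score differed there by -0.10 (adjusted p = 0.986, edgeR), and the genotypes overlapped. The share of thinned mural cells with Cxcl10 was 10.6 and 7.34% in WT mice against 7.03 and 7.12% in Tubb3-/- mice (exact permutation p = 0.333, the smallest that 2 against 2 mice allow; adjusted over 18 comparisons, 1).

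The mural class itself differed by genotype in genes outside its gate. Col1a1, Col1a2 and Dcn, which encode matrix proteins of fibroblasts, together took 2554 and 2526 CPM of mural cells in WT mice against 4580 and 3955 CPM in Tubb3-/- mice. Notch3, Cspg4 and Pdgfrb, of mural cells, took 514 and 639 against 591 and 590 CPM. Coro1a, Cd52 and Laptm5, of immune cells, stayed between 7.79 and 16.6 CPM. Art3, which overlaps Cxcl10 and is a pericyte gene, was at 39.6, 53.8, 31.9 and 39.8 CPM in mural cells (-0.37, adjusted p = 0.375, edgeR), and whether reads were counted by strand is not given in the sources used here. The part of these differences in the Cxcl10 values was not tested.

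In the other lineages Cxcl10 did not differ beyond the spread between mice. By edgeR, the log2 difference was 0.05 ± 0.11 (adjusted p = 0.922) in immune cells, -0.41 ± 0.29 (0.594) in endothelial cells, 0.24 ± 0.63 (0.969) in epithelial cells, -0.38 ± 0.45 (0.694) in fibroblasts and -0.42 ± 0.34 (0.809) in T cells. In fibroblasts WT mouse 1 alone lay above the others, and the value was 0.54 without it and -0.94 without WT mouse 2. Without WT mouse 1, the epithelial value was 1.99 and the endothelial value was 0.06. In mural cells, leaving out WT mouse 2 gave -0.81 and leaving out WT mouse 1 gave -0.15. Each of these fits has 1 WT mouse, so only the size of the difference is given. Whether the mural difference was unlike that of another lineage was tested directly by an interaction term: the difference of differences was 0.51 for immune cells, 0.12 for endothelial cells, 0.93 for epithelial cells and 0.25 for fibroblasts, none called (adjusted p from 0.826 to 1, edgeR), where these tests called 0.0471%, 0%, 0% and 0.00589% of all genes.

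Cxcl9 in mural cells showed the widest gap, at 1.1 and 0.48 CPM in WT mice against 6.4 and 7.5 CPM in Tubb3-/- mice. The log2 difference was 3.03 ± 0.37 (SE), with an adjusted p of 0.0583 (edgeR), and DESeq2 called it (3.05, adjusted p = 9.5e-07). This gap came from 1 cell in each Tubb3-/- mouse: the highest cell held 122 of 137 and 111 of 137 UMIs, against 6 of 19 and 1 of 5 in WT mice, and cells with a UMI numbered 13, 5, 14 and 19. Without the highest cell of each mouse, an alternative chosen after seeing the data, the difference was 0.78 ± 0.55 (adjusted p = 0.657, edgeR). The share of thinned mural cells with Cxcl9 lay the other way, at 0.258 and 0.201% in WT mice against 0.188 and 0.142% in Tubb3-/- mice (exact permutation p = 0.333, the smallest that 2 against 2 mice allow). These shares rest on 11 thinned cells in all, too few to give a direction. Without thinning, cells with a UMI were 13 of 1562 and 5 of 1005 in WT mice. In Tubb3-/- mice they were 14 of 1601 and 19 of 1421, the same direction as the CPM. Mural cells of Tubb3-/- mice were also deeper, at medians of 12002 and 11681 UMIs against 10354 and 9600 in WT mice. The highest cells of both Tubb3-/- mice came from the enriched sample. That of Tubb3-/- mouse 1 had 2 UMIs of Myh11, none of Notch3, 64 of Col1a1 and 86 of Dcn, and its highest marker score was that of fibroblasts. That of Tubb3-/- mouse 2 had 9 UMIs of Higd1b, 7 of Notch3, 26 of Pdgfrb and none of Dcn. These cells also held 46 and 28 UMIs of Cxcl10.

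**Figure D5:**
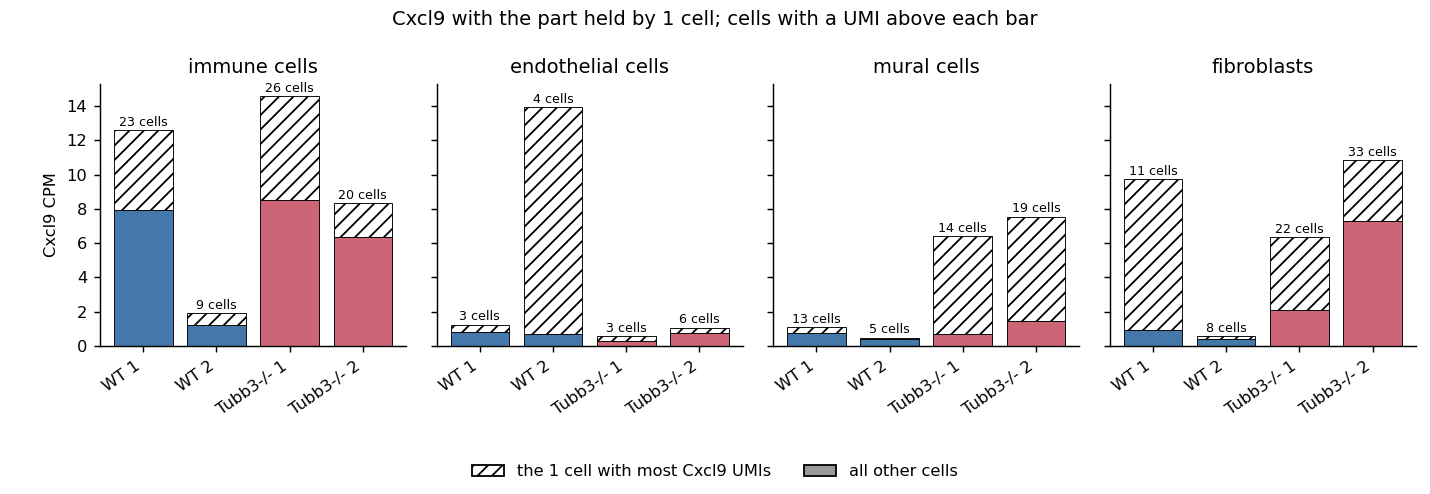
Cxcl9 in CPM by mouse in 4 lineages, with the part held by the 1 cell with most Cxcl9 UMIs hatched and the number of cells with a UMI above each bar. In mural cells of Tubb3-/- mice and in endothelial cells of WT mouse 2, nearly all of the bar is 1 cell (122 of 137, 111 of 137 and 57 of 60 UMIs).

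Cxcl9 in immune cells differed by 0.65 ± 0.76 (adjusted p = 0.841, edgeR) and in fibroblasts by 0.70 ± 0.94 (adjusted p = 0.733, edgeR). WT mouse 1 decided the fibroblast value, which was 4.01 without it and -0.22 without WT mouse 2, each with 1 WT mouse left. Without the highest cell of each mouse, fibroblast Cxcl9 was at 0.90 and 0.42 CPM in WT mice against 2.1 and 7.3 CPM in Tubb3-/- mice (2.77 ± 0.74, adjusted p = 0.173, edgeR). In endothelial cells, epithelial cells and T cells Cxcl9 did not pass the filter on low counts. Cxcr3 differed by 0.24 ± 0.23 (adjusted p = 0.806) in immune cells and by -0.02 ± 0.21 (adjusted p = 0.991) in T cells, both by edgeR, and was not tested elsewhere. In T cells the share with Cxcr3 at 2000 UMIs per cell was 9.30 and 5.61% in WT mice against 8.12 and 4.23% in Tubb3-/- mice (exact permutation p = 0.667; adjusted, 1).

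The genes around this system were read from 4 lists of 10 genes, for interferon-γ signalling, type I interferon signalling, partners of CXCR3 and type 1 lymphocytes. No gene of these lists was called in any of the 7 classes (edgeR with Benjamini-Hochberg adjustment), against the background shares above. Genes left out by the filter on low counts could not be called. In Higd1b-only cells 3, 1, 3 and 0 genes of the lists were tested, in the order above. Of the type 1 lymphocyte list, 10 genes were tested in immune cells and T cells. In endothelial cells, mural cells and fibroblasts 4 were tested, and in epithelial cells 2. Ifng, the inducer of all 3 ligands, was highest in NK cells, at 126, 207, 240 and 210 CPM, and lower in T cells, at 41.4, 7.5, 15.01 and 23.9 CPM. Pf4, which encodes another CXCR3 ligand, was highest in interstitial macrophages, at 422, 653, 312 and 489 CPM.

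Irf1, an interferon-inducible transcription factor, was highest in endothelial cells, at 459 and 477 CPM in WT mice against 241 and 285 CPM in Tubb3-/- mice (-0.82 ± 0.11, adjusted p = 0.0766, edgeR). In mural cells it was at 238 and 165 against 106 and 91.8 CPM (-1.03, adjusted p = 0.159, edgeR), and in fibroblasts at 208 and 177 against 93.0 and 88.1 CPM (-1.08, adjusted p = 0.0724, edgeR). None of these differences in the 3 lineages passed the test. Ackr3, a scavenging receptor for CXCL11 and CXCL12, was at 172 and 153 CPM in endothelial cells of WT mice and 317 and 248 CPM in those of Tubb3-/- mice (0.82 ± 0.15, adjusted p = 0.104, edgeR). Dpp4, the peptidase that trims and inactivates CXCR3 ligands, was also highest in endothelial cells, at 95.4 and 109 against 74.1 and 78.9 CPM (-0.41, adjusted p = 0.186, edgeR). With endothelial cells placed by their highest marker score, where 1.43% of all genes were called, Irf1 fell by 0.74 on the log2 scale (adjusted p = 0.0321, edgeR) and Ackr3 rose by 0.88 (adjusted p = 0.0245, edgeR), as the only genes of the 4 lists.

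The type 1 lymphocyte list had a median log2 difference of -0.98 over its 10 genes in immune cells, where the median of all genes was -0.0022. Nkg7, a granule gene of cytotoxic cells, was at 173 and 172 CPM in WT mice against 84.8 and 81.7 CPM in Tubb3-/- mice (-1.04, adjusted p = 0.194, edgeR), and Cxcr6 differed by 0.01. NK cells numbered 86 and 91 in WT mice against 56 and 28 in Tubb3-/- mice, and the NK cell panel took 499 and 677 CPM of immune cells against 266 and 255 CPM, while the T cell panel took 464, 342, 465 and 433 CPM. The part of cell numbers in these values was not tested. In T cells alone the median of the list was -0.38. The medians of the interferon-γ list were -0.03 in immune cells, -0.07 in mural cells and -0.26 in fibroblasts, and those of the partner list 0.14, -0.01 and 0.04.

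The genes most like each member were read from log2(CPM + 1) over 94 sums of 25 classes in 4 mice, among the 11698 genes that averaged 5 CPM or more, as a description, since the sums share libraries and depth. Cxcr3 was most like Itgae (Pearson r = 0.77), Gm36723 (0.75) and Clnk (0.73). Itgae encodes the CD103 integrin of cDC1 and of tissue T cells and belongs to the cDC1 panel. Cxcl9 was most like Batf3 (0.61), a transcription factor needed for cDC1, Cst3 (0.55) and Kcnk13 (0.52). Cxcl10 was most like Olfr1033 (0.71), Plxdc2 (0.71) and Ptprs (0.70).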

How the data were processed

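The authors deposited UMI counts per gene and cell from Cell Ranger 7.1.0 on mm10 with an added Cre gene (per the labels), as whole numbers without normalization, for 8 libraries of 4 mice. Each library was given to its mouse by the CellPlex tag that held 88.1 to 94.7% of its tag UMIs. Cells with 200 to 7500 genes and at most 15% mitochondrial UMIs were kept. No doublet caller was run, and cells with markers of several lineages were left out instead. Counts were summed per mouse and class over both libraries and tested with edgeR 4.0.16 (filterByExpr, TMM, quasi-likelihood F test, Benjamini-Hochberg over all genes, threshold 0.05) in R 4.3.3, with DESeq2 1.42.0 as an alternative. Tests on simulated counts were made first. Shares of cells were compared after thinning to 2000 UMIs by an exact two-sided permutation test over mice. CPM are UMIs per 1000000 UMIs of the class. The genes, marker panels, lists and tests were chosen with earlier results of these data known. The genes named are the members, Tubb3, every list gene called in a fit, list genes fixed by name (1 of which is not reported here) and the 3 genes most like each member. Art3, Nkg7, Cxcr6 and the marker genes given as values were named after their values were seen. Replicate numbers name mice and do not pair them. The p-values of the genotype tests measure the spread between 2 mice per genotype. Tests between lineages and of the interaction had mouse as a term and measure the spread within mice. The sign-flip p-values are over the paired samples of 4 mice. Tag counts were used only to give libraries to mice. Cxcl11 was not analysed here.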

Additional observations from a re-analysis of the deposited data

Results flagged for a closer look

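Cxcl9 in endothelial cells was at 13.9326 CPM in WT mouse 2, far from the other 3 mice, which lay at 1.23, 0.546 and 1.06 CPM. The gap to the nearest mouse was 0.949 of the whole range, above Dixon's critical value for 4 mice. Of its 60 UMIs, 57 were in 1 cell with 4668 UMIs in all, no Ptprc and no Coro1a, and the cell was given to no endothelial class. Such a gap was looked for in 13 groups, and chance gives it in about 1 of 20.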

How the results depend on the processing

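Of 331 alternative values for 38 results, 258 kept their direction and side of the threshold, 47 reversed, 13 gained a call, 9 lost one and 4 shares moved. With 2 mice per genotype the counts of called genes depended on the tool: edgeR, DESeq2 and edgeR with a replicate block called 0, 65 and 21 genes in immune cells, 3, 148 and 6 in endothelial cells, 0, 6 and 126 in epithelial cells, 4, 236 and 656 in mural cells, 0, 534 and 1363 in fibroblasts, 0, 3 and 169 in T cells, and 0, 1 and 39 in Higd1b-only cells. Over all settings the highest counts were 131, 1008, 238, 1026, 1363, 294 and 63. The replicate numbers pair no mice by the labels (the deviations of same-numbered mice correlated by 0.0843 to 0.301), and with the replicate block the mural Cxcl9 difference was 3.03 and called. It was 3.05 by DESeq2 and 3.05 with no low-count filter, both called. The cause of the changes below was not tested.

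For the Cxcl10 genotype difference, the enriched libraries alone gave -1.34 in immune and -0.58 in epithelial cells. The whole-cell libraries alone gave 0.14 in endothelial and 0.41 in mural cells. Placement by highest marker score gave -0.25 in immune, -0.92 in epithelial and 0.31 in T cells, and the same with whole-cell libraries -0.21, -0.070 and 0.35. Endothelial Cxcl10 was 0.44 with a marker at 2 or more UMIs and 0.12 without the cells of most UMIs, and T cell Cxcr3 was 0.021 with the stricter marker. Mural Cxcl10 was -0.50 and called with no low-count filter. For levels, the whole-cell libraries gave Cxcl10 differences of -0.94 (epithelial less endothelial), 0.057 (endothelial less immune) and 0.61 (fibroblasts less mural, not called), and Cxcl9 differences of -1.21 (fibroblasts less endothelial) and 2.46 (immune less fibroblasts, called). Without TMM, endothelial less immune Cxcl10 was 0.15 and fibroblasts less mural 0.50, not called, and by score mural less epithelial was 0.27, not called. The difference from the mural genotype difference in whole-cell libraries was -0.22 in endothelial cells, -0.54 in fibroblasts and -0.28 in immune cells for Cxcl10, and 2.23 in fibroblasts and 0.30 in immune cells for Cxcl9. By score it was -0.33 for epithelial Cxcl10. The Cxcl10 share differences were 1.61 points in immune cells and 0.536 in fibroblasts without thinning, and 0.755 in mural cells and 1.32 in fibroblasts in whole-cell libraries. UMI shares by score were 52.6% (Cxcl10, fibroblasts), 23.4% (Cxcl10, immune), 86.2% (Cxcl9, immune) and 92.5% (Cxcr3, immune).

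Leaving out 1 mouse leaves 1 mouse in a genotype, assumed to vary like the others. The genotype differences then ran, for Cxcl10, from -0.040 to 0.15 in immune, -0.83 to 0.061 in endothelial, -0.51 to 1.99 in epithelial and -0.81 to -0.15 in mural cells and -0.94 to 0.54 in fibroblasts. For Cxcl9 they ran from -0.14 to 2.64 in immune and 2.60 to 3.91 in mural cells and -0.22 to 4.01 in fibroblasts, and for Cxcr3 from -0.023 to 0.58 in immune and -0.20 to 0.24 in T cells. Levels ran from 0.45 to 0.98 (Cxcl10, epithelial less endothelial), 0.50 to 0.79 (Cxcl10, fibroblasts less mural), -0.17 to 3.65 (Cxcl9, fibroblasts less endothelial) and -2.67 to 1.27 (Cxcl9, endothelial less mural). Differences from the mural genotype difference ran from -0.15 to 0.39 (Cxcl10, endothelial), -0.13 to 0.67 (Cxcl10, fibroblasts), -7.99 to -3.16 (Cxcl9, endothelial) and -2.82 to 0.075 (Cxcl9, fibroblasts). Share differences ran from -5.63 to 2.83 points (Cxcl10, fibroblasts), -0.043 to 0.60 (Cxcl9, immune), -0.335 to 0.983 (Cxcr3, immune) and -3.23 to 0.659 (Cxcr3, T cells). Too few cells were left to test Higd1b-only cells in whole-cell libraries or with the stricter marker, and T cells in enriched libraries.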
